A study of Mus musculus with 8 samples.

Results

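The genes described are 10 genes that break down heme or bind, store, take up or export iron, and they were chosen by name as Hmox1, Hmox2, Blvrb, Hpx, Ftl1, Fth1, Tfrc, Trf, Slc40a1 and Slc11a1. All 10 were found among the 20476 protein-coding genes that the array's RefSeq mRNA probes name, with 2 probes each and 20 probes in all. Their RNA was measured in spinal cord tissue of 8 female mice, aged 8 weeks, on 1 Agilent 1-colour array per mouse. Segments T9 to T10 of the thoracic cord, around the injury, were taken. In 4 mice the cord had been bruised by a contusion injury, and 4 mice were controls. The titles of the contusion samples give 3 days after injury, but the descriptions of contusion replicates 1, 2, 3 and 4 give 3, 4, 5 and 6 days, so no split by day was made. The controls are called sham mice in the study's design text and normal cord in their descriptions, so it is not settled whether they were operated on. Strain, genotype and the force of the impact are not given in the sources used here, and each sample holds all cell types of the segment.

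Heme is the iron-bearing group of hemoglobin, and a bleeding injury leaves red cells and free heme in the tissue. Heme oxygenase opens the heme ring and frees its iron, biliverdin reductase then makes the bile pigment bilirubin, and hemopexin binds heme in the fluid outside cells. Freed iron is stored in ferritin or leaves the cell through ferroportin, while transferrin and its receptor bring iron in.

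A probe's level below is its log2 intensity minus the 75th percentile of its array, so a level under 0 means an intensity under that percentile and not an absent RNA. Each difference is the log2 level of the contused cord minus that of the control cord ± standard error, levels of a group are means ± SD with n = 4 arrays, and p-values come from limma with Benjamini-Hochberg adjustment over all 89140 RNAs tested. A gene was called higher or lower at an adjusted p under 0.05, and of its probes the one with the higher mean stood for the gene. Of 18198 mRNAs tested, 51.2% were called, 25.8% higher and 25.4% lower, and their median difference was -0.0016. On each array 72.9% to 75.4% of the probes were well above background, and no spot was saturated. Arrays within a group correlated at 0.988 to 0.992. Neuron markers were present at a mean level of 5.12 to 5.41 on contusion arrays and 5.93 to 6.10 on control arrays, and all 12 were lower in the contused cord, Rbfox3 (-0.97) and Nefh (-0.91) most. Contusion replicates 1 and 2 stood apart in skeletal muscle markers, whose mean levels there were 3.86 and 2.27, against 0.09 and 0.13 on the other contusion arrays and -0.40 to 1.21 on control arrays. With no statement of litters or operation days, p-values measure the spread between these mice.

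Of the 10 genes, 6 were higher in the contused cord, which were Hmox1, Slc11a1, Ftl1, Blvrb, Slc40a1 and Trf, and 2 were lower, Tfrc and Hmox2. Hpx and Fth1 were not called. The 8 calls among 10 genes compare with 51.2% of all mRNAs, and the levels of the groups did not overlap for 5 of the 10, against 51.8% of all mRNAs. The median difference of the 10 genes was 0.42. Without contusion replicates 1 and 2 the counts were 4 higher and 1 lower, and without control replicates 1 and 3, the control arrays with the most neutrophil RNA, they were 5 higher and 1 lower. The count of lower genes also dropped to 1 without contusion replicate 2, 3 or 4 or without control replicate 2, 3 or 4, because Hmox2 missed the threshold there.

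**Figure D1:**
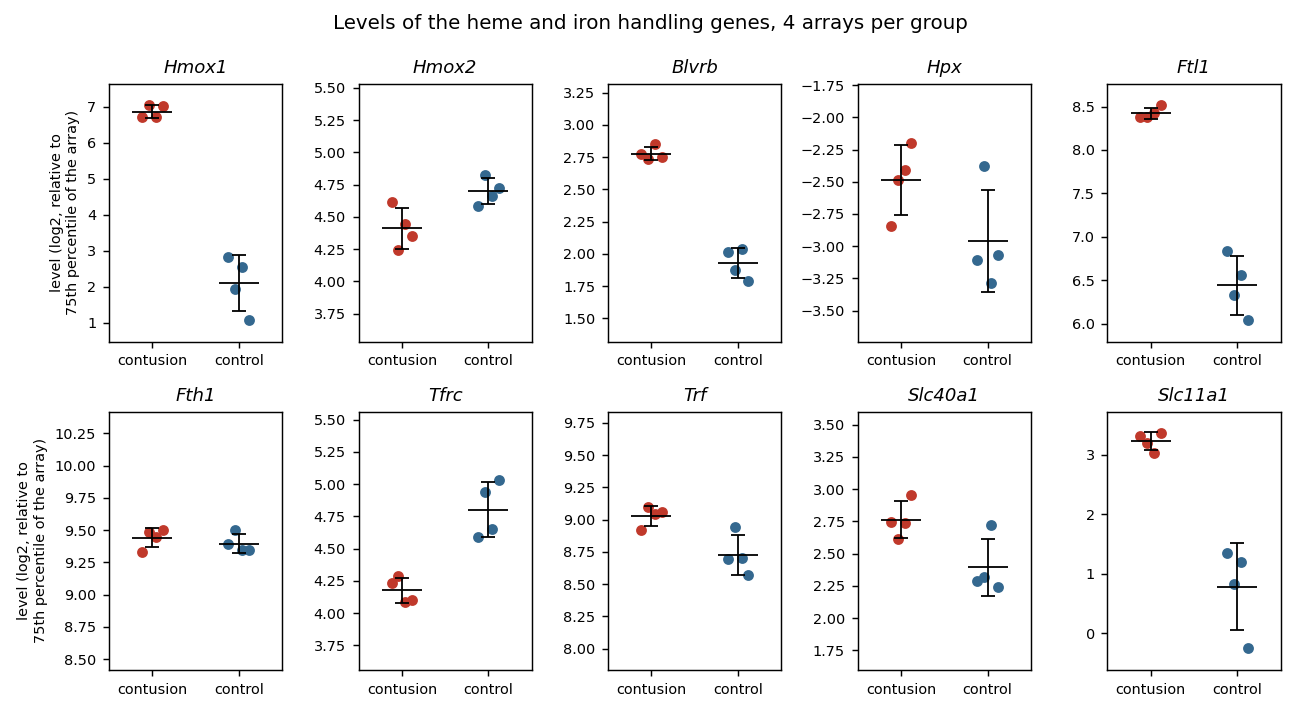
Level of each of the 10 genes on every array (log2, relative to the array's 75th percentile), with contusion arrays in red on the left of each panel and control arrays in blue on the right; bars are the mean ± SD of 4 arrays and each panel has its own axis. Hmox1, Slc11a1, Ftl1 and Blvrb lie higher on all contusion arrays than on any control array, Tfrc lies lower on all of them, and the other genes overlap.

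Hmox1 (NM_010442), the heme oxygenase that cells induce under stress, showed the widest separation of the 10 genes. Its processed intensity was 25707, 29155, 23757 and 27547 in contusion replicates 1 to 4, against 1450, 815, 1457 and 531 in control replicates 1 to 4. As levels these were 6.71, 7.05, 6.71 and 7.02 in the contused cord and 2.83, 1.94, 2.56 and 1.08 in the control cord. The contusion arrays lay close together, the control arrays spread widely with replicate 4 lowest, and the groups did not overlap. Hmox1 rose 27.3-fold (4.77 ± 0.35 by limma, adjusted p = 0.000112) and ranked 20 among 18198 mRNAs by the difference. Without control replicates 1 and 3, the controls where it was highest, the rise was 41.2-fold, and without control replicate 4 it was 21.5-fold. The second Hmox1 probe, which lies 1290 bases into the transcript at chr8:77624207-77624266 of mm9, gave 4.60 ± 0.32 (adjusted p = 7.19e-05). These 2 probes share no run of more than 7 bases, so they read different stretches of the transcript, and the first 30 bases of each show this.
Hmox1 probe with the higher mean: gttgtaaccttggtctctaacttctgtgtg
Hmox1 other probe: atggttgtaagcatccatgttgactgacca
In bulk tissue a higher or lower number of cells of a type and more or less RNA per cell cannot be told apart, and this holds for every gene below.

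Hmox2 (NM_010443) encodes the constitutive heme oxygenase, abundant in neurons. Its levels were 4.61, 4.24, 4.45 and 4.35 in contusion replicates 1 to 4, against 4.58, 4.82, 4.66 and 4.72 in control replicates 1 to 4. Contusion replicate 1 lay above the lowest control, so the groups overlapped. Hmox2 fell by 0.29 ± 0.10 (-0.29, adjusted p = 0.0448), a call near the threshold. It was lost with median scaling (-0.30, adjusted p = 0.0700) and, with 1 array left out, in 6 of 8 cases (adjusted p = 0.0735 to 0.113). The second probe gave -0.22 ± 0.06 (adjusted p = 0.0196) with no overlap, but it is no separate reading, since the 2 Hmox2 probes share 59 of 60 bases. Their first 30 bases are shown with the shared run in capitals.
Hmox2 probe with the higher mean: gTACTACATGTGAAGGACCTGTCATGTTGT
Hmox2 other probe: TACTACATGTGAAGGACCTGTCATGTTGTt
The change of Hmox1 exceeded that of Hmox2 by 5.05 on the log2 scale, and the exact two-sided permutation test of the per-array difference of the 2 genes gave p = 0.0286, adjusted p = 0.0286 over 6 pairs of genes. That p is the smallest the 70 regroupings of 4 against 4 arrays can give, and each of the 6 pairs tested reached it.

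Blvrb (NM_144923) encodes biliverdin reductase B, which also reduces flavins. It had levels of 2.78, 2.74, 2.85 and 2.75 in the contused cord, against 2.01, 1.87, 2.04 and 1.79 in the control cord. Every contusion array lay above every control array, with little spread in either group. Blvrb rose 1.80-fold (0.85 ± 0.08, adjusted p = 0.000172), and its other probe gave 0.89 ± 0.08 (adjusted p = 0.000156). The 2 probes share a run of 33 bases. The rise of Hmox1 was larger by 3.92 on the log2 scale (exact permutation p = 0.0286, adjusted p = 0.0286). Biliverdin reductase A, Blvra, was not called, with a difference of 0.11 (adjusted p = 0.303). Bilirubin was not measured, and the part of either reductase in making it was not tested.

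Hpx (NM_017371) encodes hemopexin, a plasma protein made mainly by the liver that carries free heme to cells. Its intensity was low, at 34.2, 39.2, 42.6 and 46.5 in contusion replicates 1 to 4 and 23.6, 40.8, 25.4 and 30.1 in control replicates 1 to 4. Control replicate 2 lay among the contusion arrays, so the groups overlapped. The difference was 0.47 ± 0.21 (adjusted p = 0.114) and Hpx was not called. The probe was well above background on all 8 arrays, while the other Hpx probe was so on 3 of 4 contusion arrays and 1 of 4 control arrays and gave 0.55 ± 0.21 (adjusted p = 0.0693). Without control replicate 2 the difference was 0.67 and was called (adjusted p = 0.0147), and as the mean of both probes it was 0.51 (adjusted p = 0.0216). Hpx changed by 4.29 less than Hmox1 on the log2 scale (difference of change -4.29, exact permutation p = 0.0286, adjusted p = 0.0286).

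The ferritin subunits differed. Ftl1 (NM_010240) encodes the light chain, which helps form the iron core inside the ferritin shell. Its levels were 8.38, 8.38, 8.42 and 8.52 in contusion replicates 1 to 4, against 6.84, 6.33, 6.56 and 6.04 in control replicates 1 to 4. The contusion arrays were nearly equal, the control arrays spread over a wider range, and the groups did not overlap. Ftl1 rose 3.94-fold (1.98 ± 0.16, adjusted p = 0.000135), and the other probe, at chr7:52714977-52715036 of mm9, rose 5.24-fold (2.39 ± 0.18, adjusted p = 8.25e-05). Mean intensity was 48885 for the first of these probes and 10899 for the other. Whether the first still responds in proportion at that brightness was not tested. The 2 Ftl1 probes share no run of more than 6 bases, as their first 30 bases show.
Ftl1 probe with the higher mean: tgggcgagtatctctttgagcgcctcactc
Ftl1 other probe: gtctcttcgcggttagctcctactccggat
Ferritin light chain has processed and near-identical gene copies in the mouse genome, and RNA of such copies that binds these probes would count here as Ftl1.

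Fth1 (NM_010239) encodes the heavy chain, which oxidises ferrous iron as it enters the shell. Its levels were 9.33, 9.49, 9.45 and 9.50 in the contused cord, against 9.39, 9.50, 9.34 and 9.35 in the control cord. The groups overlapped across nearly the whole range. The difference was 0.05 ± 0.07 (adjusted p = 0.630), and the other probe, at 0.03 ± 0.09, was not called either. Its sign turned with the scaling, to -0.01 after quantile scaling and in the authors' deposited table and to -0.03 with another background correction, each far from the threshold. The probes share 57 of 60 bases and so give 1 reading of the gene. Mean intensity was 155542 for the brighter probe, above 99.996% of all probes, and the scanner marked no spot as saturated. Whether the probe still responds in proportion at that brightness was not tested. The change of Ftl1 exceeded that of Fth1 by 1.93 on the log2 scale (exact permutation p = 0.0286, adjusted p = 0.0286), and that of Hmox1 exceeded that of Ftl1 by 2.79 (exact permutation p = 0.0286, adjusted p = 0.0286).

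Tfrc (NM_011638) encodes transferrin receptor 1, through which most cells take up transferrin-bound iron. Its levels were 4.23, 4.29, 4.08 and 4.10 in contusion replicates 1 to 4, against 4.59, 4.94, 4.65 and 5.04 in control replicates 1 to 4. All contusion arrays lay below all control arrays. Tfrc fell by 0.63 ± 0.11 (-0.63, adjusted p = 0.00305), so control cord held 1.54 times its level, and the other probe, at chr16:32632255-32632314 of mm9, fell by 0.84 ± 0.15 (-0.84, adjusted p = 0.00216). The 2 Tfrc probes share no run of more than 6 bases.

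The array also carried circRNA probes placed inside Tfrc. A circular RNA, or circRNA, is a spliced loop made when a later exon end joins an earlier exon start, and the files name these probes by position. Of 37852 circRNA positions, 98.2% lay inside a gene of the RefSeq annotation of GRCm38.p6, against 40.8% and 39.8% after shifts of 1000000 bases up and down, and no source used here names their build. By position 11 circRNAs lay inside the 10 genes, of which 7 were in Tfrc, 2 in Hmox2 and 2 in Fth1. All 7 in Tfrc were lower in the contused cord, by differences of -0.74 to -0.63 (adjusted p = 0.000354 to 0.00192). For each of them the groups did not overlap, as for 51.8% of all mRNAs, and the share among all circRNAs is not given here. Of all 35615 circRNAs tested 42% were called and 25.7% were lower. Neither the Hmox2 circRNAs (0.00 and -0.23) nor the Fth1 circRNAs (0.14 and 0.17) were called.

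The largest difference was that of the circRNA at chr16:32619037-32623435, with levels of 1.01, 1.00, 0.88 and 0.84 on contusion arrays and 1.54, 1.73, 1.60 and 1.83 on control arrays (-0.74 ± 0.08, adjusted p = 0.000354). The circRNA at chr16:32615193-32619176 had levels of 1.09, 1.02, 0.96 and 0.95 on contusion arrays and 1.52, 1.60, 1.64 and 1.80 on control arrays (-0.63 ± 0.08, adjusted p = 0.000471). The circRNA at chr16:32618218-32619176 ends at the same base and had levels of 0.55, 0.44, 0.30 and 0.48 on contusion arrays and 1.19, 1.10, 1.01 and 1.24 on control arrays (-0.69 ± 0.08, adjusted p = 0.000428). In each of the 3 the contusion arrays stayed below all control arrays, as they did for the Tfrc mRNA. Probes of circRNAs that end at the same base share a run of bases, shown in capitals in the full 60 bases of 3 of them.
circRNA chr16:32615193-32619176: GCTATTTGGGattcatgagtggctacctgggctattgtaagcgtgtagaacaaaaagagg
circRNA chr16:32618218-32619176: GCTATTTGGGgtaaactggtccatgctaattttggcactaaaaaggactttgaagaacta
circRNA chr16:32614566-32615394: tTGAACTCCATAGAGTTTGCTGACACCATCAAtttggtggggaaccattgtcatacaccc
The first pair share 10 bases, and the third shares 31 with the probe of the circRNA at chr16:32613168-32615394. Linear Tfrc mRNA holds the exons that such a loop joins, and its share in the signal of these probes was not tested. The 7 probes read overlapping exons of 1 gene and are not separate readings of its change.

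**Figure D2:**
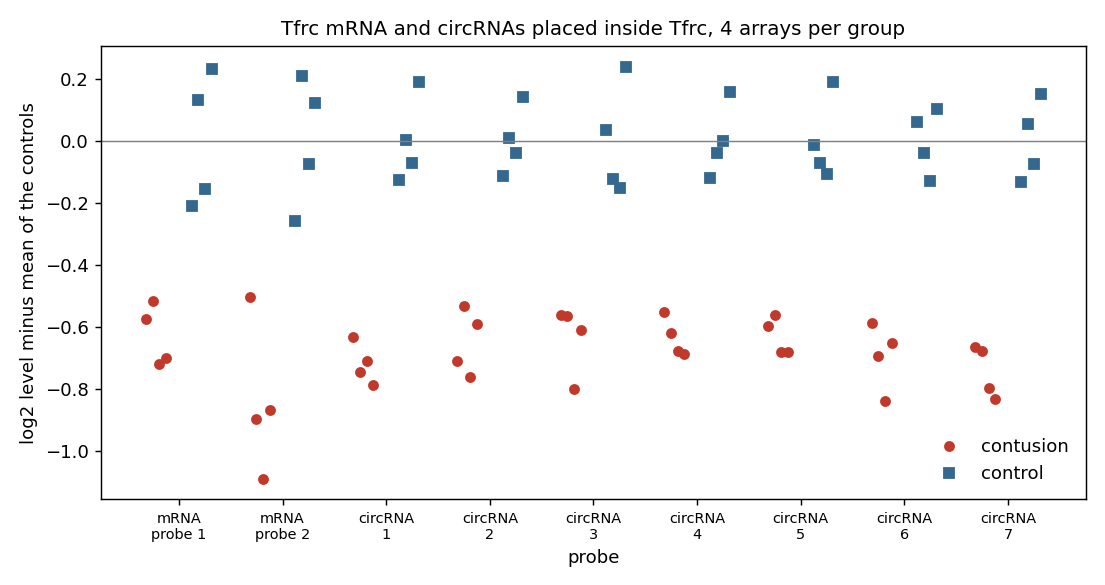
Log2 level minus the mean of the 4 control arrays for both Tfrc mRNA probes and the 7 circRNAs placed inside Tfrc, ordered by position along the gene, with contusion arrays as red circles on the left and control arrays as blue squares on the right of each probe. All contusion arrays lie below all control arrays for each of these RNAs, with differences of -0.84 to -0.63.

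Trf (NM_133977) encodes transferrin, the iron carrier of plasma, which oligodendrocytes make within the cord. The brighter probe had levels of 8.92, 9.10, 9.04 and 9.06 in contusion replicates 1 to 4, against 8.69, 8.94, 8.70 and 8.57 in control replicates 1 to 4. Control replicate 2 lay above contusion replicate 1, so the groups overlapped. Trf rose 1.23-fold (0.30 ± 0.09, adjusted p = 0.0291). The brighter probe had a mean intensity of 107583, and whether it still responds in proportion at that brightness was not tested. On the other Trf probe the levels were 7.11, 6.87, 6.99 and 7.20 in contusion replicates 1 to 4, against 6.28, 6.35, 6.11 and 6.10 in control replicates 1 to 4. There the groups did not overlap, and the rise was 1.78-fold (0.83 ± 0.09, adjusted p = 0.000282). The 60 bases of that probe span 616 bases of mm9, chr9:103117569-103118184, so it crosses an intron, and no position is given for the brighter one. They share no run of more than 7 bases, and their first 30 bases are shown because the size of the change depends on the probe.
Trf probe with the higher mean: agtcttcgctgctgtgccttaccacataca
Trf other probe: aacaacaaagaggaatataatggttacaca
The call on the brighter probe was lost with slide as a block (0.28, adjusted p = 0.0872), with the 75th percentile of the mRNA probes only (0.27, adjusted p = 0.0547) and with the normexp background (0.25, adjusted p = 0.0796). It was also lost without contusion replicate 2, 3 or 4 or control replicate 1, 3 or 4, at adjusted p-values of 0.0568 to 0.0760. Of the 12 oligodendrocyte and myelin markers, 1 rose and 5 fell (median -0.24), Ugt8a (-0.53) and Aspa (-0.49) most, with a summed linear level of 2165 to 2262 in the contused cord and 2236 to 2767 in the control cord. Their part in the result was not tested.

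Slc40a1 (NM_016917) encodes ferroportin, the only known iron exporter of mammalian cells. Its levels were 2.74, 2.61, 2.73 and 2.96 in contusion replicates 1 to 4, against 2.29, 2.32, 2.72 and 2.24 in control replicates 1 to 4. Control replicate 3 lay among the contusion arrays, so the groups overlapped, while the other 3 controls were below all of them. Slc40a1 rose 1.29-fold (0.37 ± 0.12, adjusted p = 0.0449), close to the threshold, and the other probe gave 0.28 ± 0.15 and was not called (adjusted p = 0.156). The call was also lost with slide as a block (0.40, adjusted p = 0.0799), with the median scaling (0.35, adjusted p = 0.0639) and without contusion replicates 1 and 2 (0.45, adjusted p = 0.0811). Leaving out contusion replicate 1, 3 or 4 or control replicate 1, 2 or 4 likewise ended it, at adjusted p-values of 0.0774 to 0.114. The change of Slc40a1 exceeded that of Tfrc by 1.00 on the log2 scale (exact permutation p = 0.0286, adjusted p = 0.0286).

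Slc11a1 (NM_013612) encodes NRAMP1, a metal transporter in the phagosome membrane of macrophages and neutrophils. Its levels were 3.32, 3.19, 3.02 and 3.36 in contusion replicates 1 to 4, against 1.35, 0.83, 1.20 and -0.26 in control replicates 1 to 4. Control replicate 4 was far below the other controls, and the groups did not overlap. Slc11a1 rose 5.43-fold (2.44 ± 0.32, adjusted p = 0.000691). The other probe was dim, with a mean intensity of 81.1, and had levels of -1.18, -1.19, -1.17 and -1.09 in contusion replicates 1 to 4 and -1.64, -1.90, -1.89 and -2.20 in control replicates 1 to 4. Here too the groups did not overlap, but the rise was 1.68-fold (0.75 ± 0.11, adjusted p = 0.000983), and the mean of both probes gave 3.02-fold. Since the size rests on the probe, the first 30 bases of both are shown. The brighter lies 1839 bases into the transcript at chr1:74432161-74432220 of mm9, and the files give no position for the dimmer one.
Slc11a1 probe with the higher mean: ccggtttccagtttggacaagtgctttacc
Slc11a1 other probe: agacctacctgagtgagaagatccccattc

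**Figure D3:**
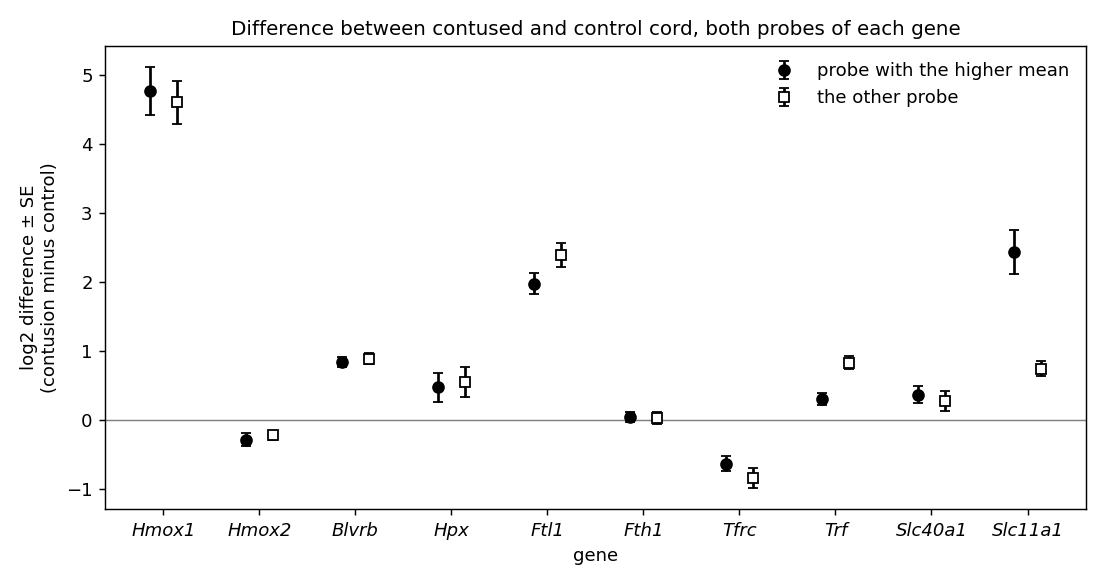
Log2 difference (contusion minus control) with its standard error for both probes of each gene, the probe with the higher mean as a filled circle and the other as an open square. The probes of each gene have the same sign; for Slc11a1 (2.44 and 0.75) and Trf (0.30 and 0.83) they differ most in size.

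With each of the 20 probes as its own feature, 15 were called, 11 higher and 4 lower, against 53.7% of all mRNA probes called. Both probes had the same sign for 10 of 10 genes, which includes the unsettled sign of Fth1.

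The arrays lay on 2 slides. Slide 1 held contusion replicate 1 with control replicates 2, 3 and 4, and slide 2 held contusion replicates 2, 3 and 4 with control replicate 1. The descriptions that give days 4, 5 and 6 all belong to arrays of slide 2, so slide and described day cannot be told apart. With slide as a block Hmox1 rose by 4.47 (adjusted p = 0.000766), Ftl1 by 1.83 (adjusted p = 0.000805), Slc11a1 by 2.28 (adjusted p = 0.00404) and Blvrb by 0.82 (adjusted p = 0.00107), and Tfrc fell by 0.54 (-0.54, adjusted p = 0.0133). Within slide 1 and within slide 2 the difference of Hmox1 was 4.85 and 4.09, the smaller of which is 17.1-fold. Ftl1 differed by 2.07 and 1.60, Slc11a1 by 2.72 and 1.84, Blvrb by 0.88 and 0.76, and Tfrc by -0.64 and -0.43 within slides 1 and 2. Hmox2 was not called with the block (-0.18, adjusted p = 0.145), and it differed by -0.12 and -0.24 within slides 1 and 2. Within the same slides Slc40a1 differed by 0.32 and 0.48, Trf by 0.18 and 0.38, Hpx by 0.06 and 0.75, and Fth1 by -0.06 and 0.08. Each value within a slide rests on a single array of 1 group. With the block Hpx gave 0.40 (adjusted p = 0.267) and Fth1 0.01 (adjusted p = 0.931).

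Markers of blood-borne cells moved with the genes that rose most. All 18 monocyte and macrophage markers were higher in the contused cord, with a median difference of 2.95, and their summed linear level was 1016 to 1236 on contusion arrays and 75.4 to 238 on control arrays. The arginase gene Arg1, a mark of macrophages in wounds, was 36.5-fold higher (5.19 ± 0.90, adjusted p = 0.00248), and Msr1, which encodes a scavenger receptor, was 35.4-fold higher (5.15 ± 0.57, adjusted p = 0.000336). The mean level of the macrophage list was 4.08, 3.90, 3.90 and 4.24 in contusion replicates 1 to 4, against 1.49, 0.63, 1.45 and -0.42 in control replicates 1 to 4. Among the 4 controls the list ran in the order replicate 1, 3, 2, 4 from high to low. Hmox1, Ftl1 and Slc11a1 ran in that order too. Blvrb ran in the order 3, 1, 2, 4, which was that of the red blood cell and resident microglia lists. The neutrophil list ran in the order 3, 1, 4, 2. The part of any of these lists in the rise of the 4 genes was not tested.

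Of 12 resident microglia markers 8 rose and 0 fell (median 0.89), led by Fcrls (2.10) and Olfml3 (1.95), with a summed linear level of 306 to 347 on contusion arrays and 95.4 to 168 on control arrays. Of 14 neutrophil markers 6 rose and 1 fell, with sums of 45.6 to 171 on contusion arrays and 20.2 to 143 on control arrays that overlapped. The chemokine receptor gene Cxcr2 had a difference of 2.39 but was well above background on 1 of 4 control arrays, and the collagenase gene Mmp8 followed with 2.15. Neither Cxcr2 nor Mmp8 was called with slide as a block or without contusion replicates 1 and 2. Of 13 red blood cell genes tested 6 rose and 0 fell (median 0.67), with sums of 1261 to 2613 on contusion arrays and 540 to 1291 on control arrays. Among them Hbb-bt, a beta-globin gene whose probe may also read its near-identical copies, had a difference of 1.38 ± 0.38 (adjusted p = 0.0216), which was not called with slide as a block (adjusted p = 0.0621). Hbb-b2, a related gene, differed by 1.47 (adjusted p = 0.0268), and without contusion replicates 1 and 2 neither globin gene was called (adjusted p = 0.174 for Hbb-b2 and 0.124 for Hbb-bt). Endothelial markers rose in 9 of 12 cases, led by Cdh5 (1.45) and Pecam1 (1.38), and fell in 1. Astrocyte markers rose in 3 of 10 cases, with Aldh1l1 leading (0.88), and fell in 6, with Ntsr2 leading (-1.11). Of 9 choroid plexus, meninges and liver-like secreted genes Lum rose (1.81), Kl fell (-0.42) and 7 were not called, with sums of 142 to 183 on contusion arrays and 44.2 to 197 on control arrays. In the muscle list Pvalb fell (-0.97) and the other 11 genes were not called. The median difference of that list was nevertheless 1.34, with high mean levels in contusion replicates 1 and 2 only (3.86 and 2.27, against 0.09 and 0.13 in replicates 3 and 4). The part of each of these lists in the changes of the 10 genes was not tested.

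**Figure D4:**
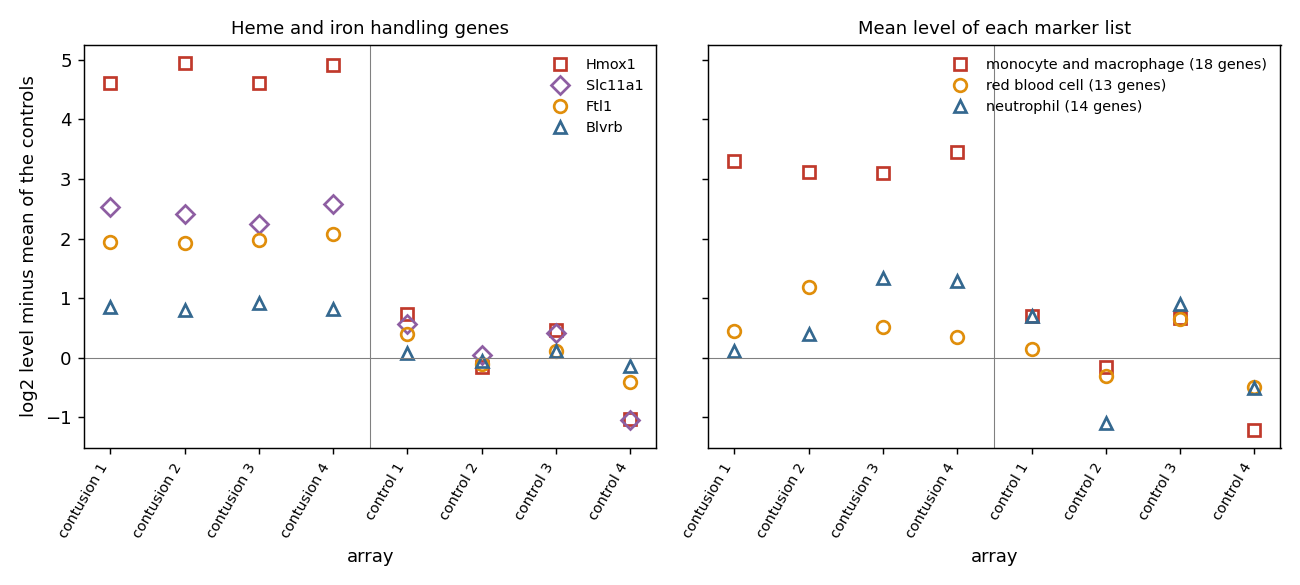
Log2 level of each array minus the mean of the 4 control arrays, for Hmox1, Slc11a1, Ftl1 and Blvrb on the left and for the mean level of 3 marker lists on the right, with contusion arrays left of control arrays in each panel. The 4 genes and the macrophage list are higher on all contusion arrays than on any control array, control replicate 4 is lowest in each of these, and the red blood cell and neutrophil lists overlap between groups.

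The mRNAs whose centred profile over the 8 arrays lay closest to that of Hmox1, by root-mean-square distance among 18181 mRNAs, were Gdf15 (distance 0.239), F10 (0.280) and Crym (0.337). Gdf15 encodes a stress-induced cytokine and rose 26.5-fold (4.73 ± 0.37, adjusted p = 0.000134). The coagulation factor X gene F10 rose 21.1-fold (4.40 ± 0.44, adjusted p = 0.000236), and Crym, which encodes a thyroid hormone-binding protein, rose 19.8-fold (4.31 ± 0.41, adjusted p = 0.000206). Closest to Slc40a1 were Traf1 (0.0619), Nos2 (0.0681) and Pabpc4l (0.0767), with differences of 0.42, 0.39 and 0.36. Closest to Trf were Rps14 (0.0522), Erp29 (0.0530) and Trp53inp2 (0.0551), with differences of 0.27, 0.38 and 0.30. A small distance to a gene with a small change is common, so these names describe the profiles only.

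Other genes of the same pathways were read from 5 lists. Of 80 listed genes 79 were tested, all but Hephl1, and 27 were higher, 15 lower and 37 not called, beside 25.8% of all mRNAs called higher and 25.4% lower. Without contusion replicates 1 and 2 the counts were 20 higher and 11 lower, and without control replicates 1 and 3 they were 24 and 17.

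Of 14 genes of heme and hemoglobin clearance 9 rose and 1 fell, with a median of 0.49 beside -0.0016 for all mRNAs. Nfe2l2, which encodes NRF2, an activator of Hmox1, rose 1.88-fold (0.91 ± 0.07, adjusted p = 0.000123). Bach1, which encodes a heme-sensing repressor of Hmox1, rose 1.48-fold (0.57 ± 0.07, adjusted p = 0.000461). The hemoglobin scavenger receptor gene Cd163 rose 2.03-fold (1.02 ± 0.27, adjusted p = 0.0164), which was not called without contusion replicates 1 and 2 (0.86, adjusted p = 0.114). Haptoglobin, Hp, which binds free hemoglobin, had a difference of 1.18 but was not called (adjusted p = 0.0983). The heme transporters Slc48a1 (0.37), Flvcr2 (0.46) and Slc46a1 (0.41), the exporter Abcg2 (0.56) and the hemopexin receptor gene Lrp1 (0.53) rose as well. The heme-binding plasma protein gene Hrg rose by 0.26, a call near the threshold (adjusted p = 0.0468). Its levels were low, at -2.49 in the contused cord and -2.75 in the control cord. The heme-binding membrane protein gene Pgrmc1 fell by 0.43 ± 0.07 (-0.43, adjusted p = 0.00229).

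Of 19 genes of iron uptake, reduction and storage 8 rose and 4 fell, with a median of 0.15. Lcn2, whose product lipocalin 2 captures iron-laden siderophores, rose 9.60-fold (3.26 ± 0.52, adjusted p = 0.00160). Of the 4 genes of the STEAP family of metalloreductases 3 were called higher and 1 lower. Steap1 rose 3.23-fold (1.69 ± 0.13, adjusted p = 0.000125) and Steap3 2.35-fold (1.23 ± 0.11, adjusted p = 0.000188), while Steap2 fell by 1.03 ± 0.10 (-1.03, adjusted p = 0.00022). Steap4, with 3 control values, had a difference of 1.38 ± 0.46 at the threshold (adjusted p = 0.0493). It was not called with slide as a block (adjusted p = 0.111) or without contusion replicates 1 and 2 (adjusted p = 0.105). The zinc and iron transporters Slc39a8 (0.67) and Slc39a14 (0.70) rose. The endosomal iron transporter Slc11a2, the relative of Slc11a1, fell by 0.50 (-0.50, adjusted p = 0.0116), the liver-type transferrin receptor gene Tfr2 fell by 0.59 (-0.59, adjusted p = 0.00953) and the lipocalin receptor gene Slc22a17 fell by 0.72 (-0.72, adjusted p = 0.00117). Ncoa4, the carrier of ferritin to lysosomes, was not called (0.12, adjusted p = 0.179).

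Of 17 tested genes of iron export and its control 5 rose and 1 fell, with a median of -0.04. Cp, which encodes the ferroxidase ceruloplasmin, rose 2.38-fold (1.25 ± 0.27, adjusted p = 0.00732), but the median of its probes gave 0.21 and no call (adjusted p = 0.176). Erfe, which encodes a hormone that lowers hepcidin, rose 6.77-fold (2.76 ± 0.23, adjusted p = 0.000156). Its mean levels were low, at -1.15 in the contused cord and -3.91 in the control cord. The size of its rise depended on the processing, with differences of 1.10 to 3.08 over all alternatives. The hepcidin gene Hamp was not called (0.19 ± 0.63, adjusted p = 0.838). It was dim, with levels of -4.51 ± 1.32 in the contused cord and -4.71 ± 0.67 in the control cord. Its probe was well above background on only 3 of 4 arrays in each group, so a change of Hamp cannot be judged here. Id1, a target of BMP signalling, rose 1.92-fold (0.94 ± 0.10, adjusted p = 0.000274), and Hfe, whose product binds transferrin receptor 1, rose by 0.94 (adjusted p = 0.000963). App, whose protein has been linked to iron export, fell by 0.26 (-0.26, adjusted p = 0.0308), a call that did not hold with slide as a block (adjusted p = 0.102). The iron regulatory protein genes Aco1 (0.07, adjusted p = 0.449) and Ireb2 (-0.06, adjusted p = 0.533), whose products bind ferritin and Tfrc mRNA, were not called.

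Heme synthesis had 3 higher and 2 lower genes of 13, with a median of 0.03. Tmem14c, a mitochondrial porphyrin transporter gene, rose 1.52-fold (0.61 ± 0.06, adjusted p = 0.000254). The red-cell form of the first enzyme, Alas2, had a difference of 1.36 ± 0.44 (adjusted p = 0.0408). Alas2 was not called without contusion replicates 1 and 2 (0.83, adjusted p = 0.233) or with slide as a block (1.51, adjusted p = 0.0674). Cpox (-0.52, adjusted p = 0.0195) and Abcb10 (-0.31, adjusted p = 0.0381) were lower, and neither call held with slide as a block (adjusted p = 0.0759 for Cpox and 0.122 for Abcb10).

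Mitochondrial iron and iron-sulfur cluster genes had 2 higher and 7 lower of 16, with a median of -0.11. The cluster scaffold gene Iscu fell by 0.58 ± 0.09 (-0.58, adjusted p = 0.00164), and the assembly genes Isca1 (-0.48, adjusted p = 0.00202) and Lyrm4 (-0.42, adjusted p = 0.00304) fell too. Of the 2 that rose, Hscb had a difference of 0.39 (adjusted p = 0.00739) and Fdx1 one of 0.26 (adjusted p = 0.0485). Neither was called without contusion replicates 1 and 2 (adjusted p = 0.0515 for Hscb and 0.267 for Fdx1).

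**Figure D5:**
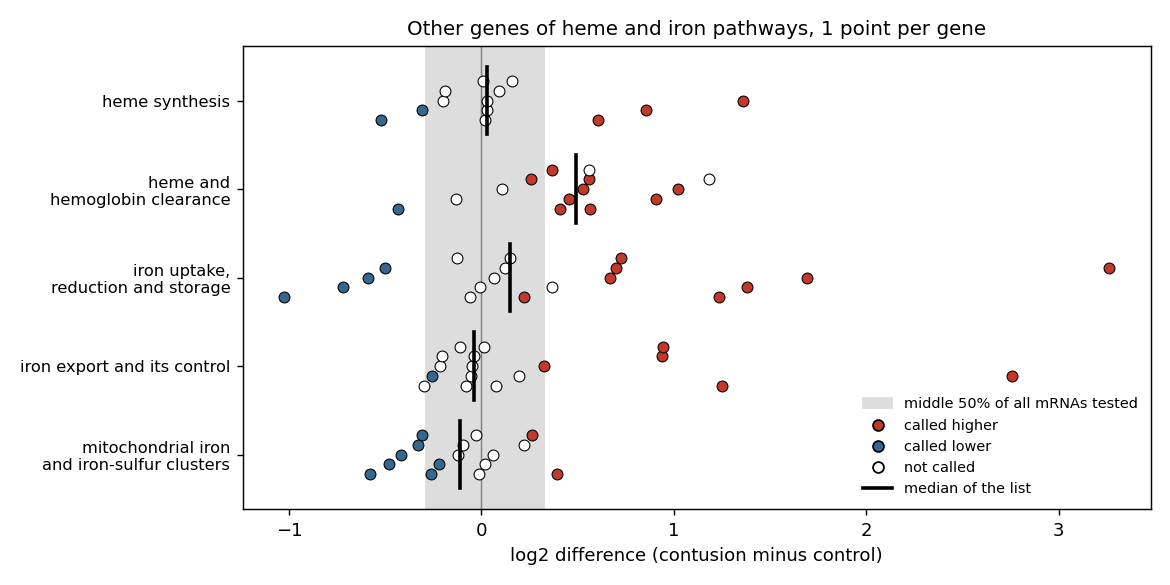
Log2 difference (contusion minus control) of each tested gene of 5 heme and iron pathway lists, 1 point per gene, filled red where called higher, blue where called lower and white where not called; the black bar is the median of the list and the grey band holds the middle 50% of all mRNAs tested. The median of the heme and hemoglobin clearance list (0.49) lies above the band, and those of the other lists (-0.11 to 0.15) lie within it.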

How the data were processed

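Values start from the deposited spot intensity, from which Feature Extraction had taken off background and spatial trend, per the file headers, with no scaling across arrays. Versions differ by source, being 10.7 in the submitters' processing notes, which also name limma, and 12.0.3.1 in the headers. Of the 172336 spots that each header counts, 155279 were analysed here. The authors' deposited series table holds log2 values (rank correlation with the log2 intensity of each array 1, column medians 5.40, so neither centred per gene nor of turned direction) and served as an alternative only.

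Control spots and 6 to 53 outlier spots per array were left out. The log2 processed intensity of each spot was set against its array's 75th percentile (203 to 252 in intensity). A probe was kept if it was well above background on 4 or more of the 8 arrays. The groups were compared two-sided in limma 3.58.1 (R 4.3.3), with no term but group, by lmFit and eBayes. The median standard error over mRNAs was 0.0944, and 4 arrays per group limit the precision. Gene symbols came from the GRCm38.p6 RefSeq table, which held 99.1% of the 22694 mRNA accessions. Probe coordinates are those of mm9, per the file headers. The script was tested on simulated data. A list's summed linear level adds its genes' intensities, each divided by the array's 75th percentile.

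The 10 genes and all lists were chosen with earlier results of these data known. Named beside the 10 genes were up to 3 called genes with the largest increase and up to 3 with the largest decrease of each pathway list, the 2 called markers with the largest difference of each cell type list, and the 3 nearest profiles of Hmox1, Slc40a1 and Trf. Of the genes this names, 1 counted in a pathway list is not reported here. Other list members named in the text were chosen after their values were seen. Alternatives covered background correction, scaling, the filter, the choice of probe, slide, replicate number, left-out arrays, limma's trend and the adjustment.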

Additional observations from a re-analysis of the deposited data

Results flagged for a closer look

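Among the 20 groups of 4 arrays checked, 1 array stood far from the others of its group, which is the number that chance flags in about 20 such groups. The Slc40a1 level of control replicate 3 was 2.72, while the next highest control was at 2.32, a gap of 0.836 of the whole control range. Without that array the difference of Slc40a1 was 0.48 (adjusted p = 0.00694). The same array had the highest mean level of neutrophil markers (0.82) and of red blood cell genes (2.35) among the controls, and their part in its Slc40a1 level was not tested.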

How the results depend on the processing

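Hmox1, Blvrb, Ftl1, Slc11a1 and Tfrc kept their direction and stayed under the threshold under every tested alternative, with highest adjusted p-values of 0.00534, 0.00534, 0.00534, 0.0111 and 0.0160. Over all alternatives, values within a slide included, Hmox1 ranged from 4.09 to 5.36, Ftl1 from 1.60 to 2.39, Blvrb from 0.73 to 0.95, Slc11a1 from 0.75 to 2.93 and Tfrc from -0.84 to -0.43. Highest adjusted p-values were 0.145 for Hmox2, 0.135 for Trf and 0.156 for Slc40a1, and the cause of these losses was not tested. The sign of Fth1 turned with the normexp background (-0.0341), quantile scaling (-0.0143) and the authors' series table (-0.0140), and that of the shorter Hmox2 circRNA with slide as a block (-0.000320) and over left-out arrays (-0.00919 to 0.0171). The count of lower members was 1 in place of 2 with median scaling, no filter on dim probes, slide as a block, the replicate block, without contusion replicates 1 and 2 and without control replicates 1 and 3, and 1 to 2 with 1 array left out, because Hmox2 missed the threshold. The count of higher members was 4 to 6 with 1 array left out. With 1 array left out, the pairs cannot go below an exact permutation p of 0.0571, and the differences of change were 4.71 to 5.34 (Hmox1 against Hmox2), 1.82 to 2.07 (Ftl1 against Fth1), 0.87 to 1.16 (Slc40a1 against Tfrc), 3.63 to 4.14 (Hmox1 against Blvrb), 2.58 to 2.90 (Hmox1 against Ftl1) and -4.59 to -3.99 (Hpx against Hmox1). Arrays of the same replicate number had correlations of deviations of -0.24, 0.03, 0.06 and -0.17. The arrays of each such pair lay on different slides, so these values cannot decide whether the numbers mark a pairing. With the replicate block 4 members were higher and 1 lower. Over all alternatives the lower genes were 0 to 3 of heme synthesis in place of 2 and 0 to 3 of iron export in place of 1, and the higher ones 0 to 3 of mitochondrial iron in place of 2 and 3 to 5 of iron export in place of 5. Of the values of the other named genes with 1 array left out, 338 kept their side of the threshold, 77 no longer passed it and 1 newly passed it. Hpx is dim and was called on neither probe alone, but was called as the mean (adjusted p = 0.0216) or median (adjusted p = 0.0217) of both and without control replicate 2 (adjusted p = 0.0147).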
